A study of Mus musculus with 48 samples.

Results

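The Wnt pathway was examined as 52 of the 22380 protein-coding genes in the NCBIM37 (mm9) annotation. These were the genes whose symbol begins with Wnt, Fzd, Dvl, Sfrp, Dkk, Axin or Tcf7, together with Ctnnb1, Apc, Lef1, Lrp5, Lrp6 and Btrc. They comprised 19 Wnt ligands, 12 receptors, 9 secreted inhibitors or inhibitor-like genes, 7 cytoplasmic transducers and 5 nuclear transducers. N6-methyladenosine (m6A) on RNA had been mapped by MeRIP-seq, in which fragments are pulled down with an antibody to m6A and sequenced beside the unselected input RNA, in the hippocampus of male mice. The 8 conditions, each with 3 animals, crossed genotype, training and age. The trained KI, naive KI, trained WT and naive WT mice were each studied at 8 and at 5 months of age. KI mice were heterozygous knock-ins (HdhQ7/Q111) carrying a huntingtin allele with 111 glutamines, and WT littermates (HdhQ7/7) carried the mouse allele. Trained mice had explored a pair of identical objects in an arena with spatial cues and were killed 30 min later, whereas naive mice were not trained. Each condition was a set of separate animals, and each library came from whole hippocampus rather than from sorted cells.

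Wnt proteins are secreted lipid-modified ligands that bind Frizzled (Fzd) receptors and, in the β-catenin branch, the co-receptors Lrp5 and Lrp6. Receptor engagement recruits Dishevelled (Dvl) and disables the complex of Axin, Apc and kinases that marks β-catenin (Ctnnb1) for recognition by the ubiquitin ligase subunit β-TrCP (Btrc). Stabilised β-catenin then acts with the DNA-binding factors Lef1, Tcf7, Tcf7l1 and Tcf7l2. In the hippocampus the pathway is known for its part in embryonic patterning, adult neurogenesis and synapse formation. The m6A mark is placed during transcription by a methyltransferase complex built on Mettl3 and Mettl14, mostly near stop codons and in long exons, and it influences the splicing, decay and translation of the RNA.

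Sequences under the peaks show what the antibody recovered on these transcripts. They were chosen from the most enriched ligand and receptor regions, from the regions whose values are compared between conditions below, and from the motif sites of further ligands and of Sfrp1. Coding windows span 101 bases centred on the peak summit, except that of Tcf7l2, whose surroundings reach an untranslated part. That window and the 3′ UTR windows span 27 bases, centred on the GGAC nearest the summit or on the summit itself where none lay within 50 bases of it. All are genomic mm9 sequence read 5′ to 3′ on the gene's strand and may run into an intron. Capitals mark GGAC, the core of the commonest m6A sequence context. The regions of Fzd1, Lef1 and Fzd7 described below held no GGAC round the summit and are not shown. The sequences shown therefore do not represent how often GGAC occurs.
Wnt5a coding, chr14:29335911-29336011, + strand: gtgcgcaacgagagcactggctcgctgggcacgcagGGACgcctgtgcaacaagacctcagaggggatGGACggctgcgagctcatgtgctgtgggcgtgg
Wnt3 coding, chr11:103673813-103673913, + strand: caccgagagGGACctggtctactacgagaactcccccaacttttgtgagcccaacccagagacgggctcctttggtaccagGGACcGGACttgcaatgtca
Wnt9a coding, chr11:59144741-59144841, + strand: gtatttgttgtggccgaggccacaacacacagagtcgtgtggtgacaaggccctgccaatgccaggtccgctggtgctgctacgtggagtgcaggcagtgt
Fzd4 coding, chr7:96556736-96556836, + strand: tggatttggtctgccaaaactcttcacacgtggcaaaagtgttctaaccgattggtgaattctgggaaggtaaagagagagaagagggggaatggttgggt
Fzd6 coding, chr15:38862425-38862525, + strand: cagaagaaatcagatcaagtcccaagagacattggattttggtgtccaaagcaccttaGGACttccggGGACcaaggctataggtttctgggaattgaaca
Lrp5 coding, chr19:3630184-3630284, - strand: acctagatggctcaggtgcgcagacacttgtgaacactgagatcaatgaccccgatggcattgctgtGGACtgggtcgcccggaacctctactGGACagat
Axin2 coding, chr11:108784897-108784997, + strand: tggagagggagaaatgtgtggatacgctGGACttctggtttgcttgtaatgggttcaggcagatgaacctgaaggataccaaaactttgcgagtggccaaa
Wnt5b 3′ UTR, chr6:119383231-119383257, - strand: ggccctctgtgaGGACtggattttgct
Wnt2 3′ UTR, chr6:17939762-17939788, - strand: ttcttccctcaaGGACtccaattacat
Wnt7b 3′ UTR, chr15:85367512-85367538, - strand: ctgcctgtgactGGACacagaaaggcc
Sfrp1 3′ UTR, chr8:24557305-24557331, + strand: agaactgcagacGGACagctgctcagc
Axin2 3′ UTR, chr11:108810953-108810979, + strand: caaaacatgaccactctgggctataga
Tcf7l2 coding, chr19:56006088-56006114, + strand: tgtccctgaagcctgatcctctggccc

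GGAC was searched on both strands in the 101 bases round the summit of each region called in every animal. On the transcribed strand it occurred in 19 of 35 Wnt pathway windows (54.3%), against 4888 of 10069 windows over all protein-coding genes (48.5%). On the opposite strand the shares were 25.7% and 25.3%. GGACT, which contains GGAC, was found in 25.7% of Wnt pathway windows and 19.4% of all windows on the transcribed strand, and in 11.4% and 8% on the opposite strand. The Wnt3 window held 3 copies of GGAC and the Wnt5a, Fzd6 and Lrp5 windows 2 each, whereas the Wnt9a and Fzd4 windows held none. A match describes letters only, and single methylated adenosines are not resolved by these peaks.

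The number of peaks per library ranged between 22601 and 57293. Naive KI mice at 8 months included the 2 libraries with the most peaks, 51735 and 57293, and the trained WT mice at 5 months included the library with the fewest. Across ages, libraries held 29783 to 57293 peaks at 8 months and 22601 to 40799 at 5 months. The median enrichment of the regions called in every animal lay between 4.87 and 6.06 in all libraries. All 4 dentate gyrus markers and all 4 microglial markers carried a peak in all 24 animals, as did 2 of 3 CA1 and 2 of 3 CA3 markers. So did 3 of 6 neuronal, 2 of 4 astrocyte, 2 of 4 oligodendrocyte and 3 of 4 endothelial markers. Of 10 choroid plexus genes, 2 had a peak in all 24 animals and 2 had none in any animal. Single animals had a peak on 2 to 8 of these 10. The 2 without were Ttr and Aqp1, which are abundant in choroid plexus, although an unmethylated transcript would also give none.

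Peaks on the Wnt pathway were widespread. A peak on the gene body was found in all 24 animals for 28 of the 52 genes, against 35.3% of all protein-coding genes, and 7 genes had none in any animal, against 38.0% of all genes. The 7 were the ligands Wnt2b, Wnt3a, Wnt8a and Wnt10b, the inhibitors Dkk1 and Dkk4, and Dkkl1. Single libraries held a peak on 32 to 42 of the 52 genes. A peak requires both the transcript and its methylation, so genes without one could not be told apart as unexpressed or unmethylated.

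Receptors were called in nearly every library. Of 12 receptors, 11 had a peak in every animal, namely Fzd1 to Fzd9, Lrp5 and Lrp6, and Fzd10 had one in 22 animals. Among ligands, 9 of 19 were called in all 24 animals: Wnt2, Wnt3, Wnt4, Wnt5a, Wnt5b, Wnt7a, Wnt7b, Wnt9a and Wnt16. Wnt1, Wnt9b and Wnt10a were called in 23 animals and Wnt11 in 20. Wnt6 and Wnt8b were each called in 1 animal only, a naive and a trained KI mouse at 5 months.

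Secreted inhibitors hold Wnt proteins or co-receptors away from signalling, and Sfrp1 was the only one of 9 with a peak in every animal. Dkk2 was called in 21 animals, Dkk3 in 20, Sfrp2 in 12, Sfrp5 in 10 and Sfrp4 in 4. Cytoplasmic transducers were called throughout for Apc, Axin1, Axin2, Btrc and Dvl3, with Dvl1 in 23 animals and Dvl2 in 11. The Dvl2 regions called in 10 animals and in 1 animal also overlapped Acadvl on the opposite strand. The Dvl2 region clear of Acadvl, a coding one, was called in 1 animal. Of the nuclear factors, Lef1 and Tcf7l2 were called in all 24 animals, Ctnnb1 in 23, Tcf7l1 in 20 and Tcf7 in 5.

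**Figure D1:**
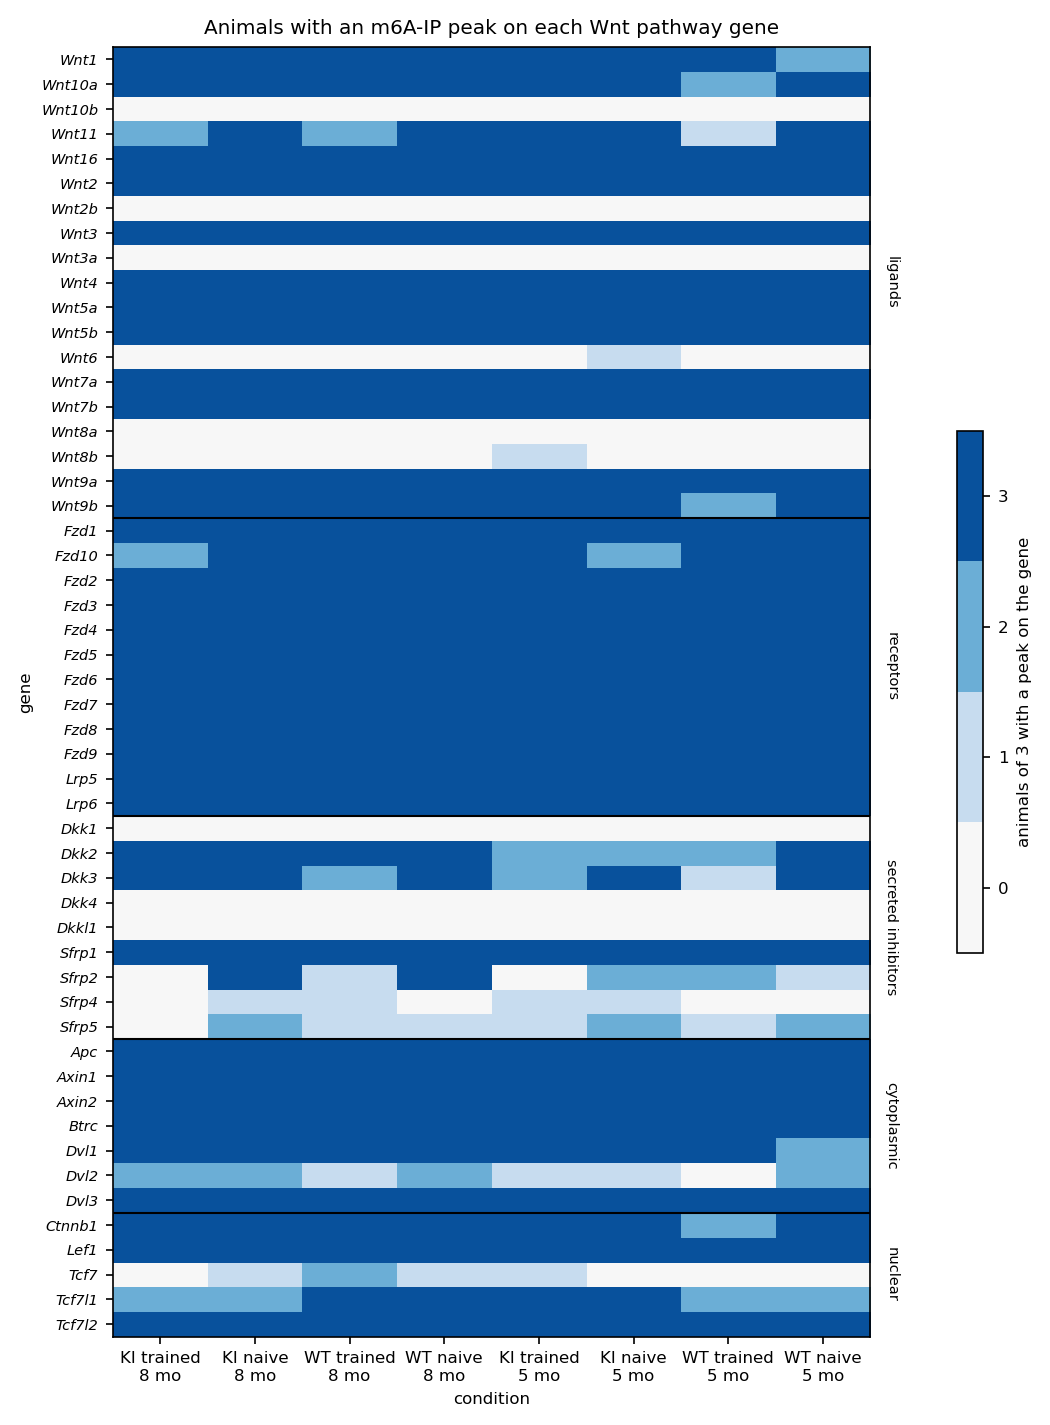
Number of animals, of 3 per condition, with an m6A-IP peak on each of the 52 Wnt pathway genes, grouped by role down the page and by condition across it. Receptors form a solid block, and the gaps lie mainly among ligands and secreted inhibitors.

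Peaks of all animals were merged into 81807 common regions, of which 191 lay on a Wnt pathway gene. Lrp5 held 14 of them, Lrp6 and Btrc 11 each, and Apc 10. Fzd1, Fzd8, Fzd9, Fzd10, Wnt1, Wnt11 and Wnt16 held 1 each, as did Wnt6, Sfrp2 and Sfrp5. Summits of the Wnt pathway regions, placed by the features of any protein-coding gene there, fell in coding sequence in 54.5% of cases, in a 3′ UTR in 18.8% and in introns or noncoding parts in 18.8%. Over all regions on protein-coding genes these shares were 36.4%, 13.8% and 42.2%. Among the regions called in all 24 animals the coding share was 61.1% for the Wnt pathway and 50% for all genes, the 3′ UTR share 30.6% and 28.9%, and the intronic share 0 and 14.2%. By the Wnt pathway gene's own features the coding share was 58.3% and the intronic share 2.78%, since the summit of the region in a Wnt5b intron lies in coding sequence of Fbxl14.

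The number of peaks on Wnt pathway genes varied with the libraries. It averaged 92.7 ± 17.6 in trained KI, 143 ± 32.3 in naive KI, 104 ± 13.1 in trained WT and 107 ± 21.8 in naive WT mice at 8 months (SD, n = 3 each). At 5 months the averages were 95 ± 11.5 in trained KI, 96.7 ± 5.77 in naive KI, 82 ± 6.24 in trained WT and 86 ± 7.94 in naive WT mice (SD, n = 3 each). The high value of naive KI mice at 8 months rested on 148 and 173 peaks in the libraries with the most peaks of all genes, against 109 in the remaining animal. The number of genes with a peak was closer, at 37.7 ± 0.577 in trained KI, 40.7 ± 0.577 in naive KI, 39.3 ± 1.15 in trained WT and 40.3 ± 0.577 in naive WT mice at 8 months (SD, n = 3 each). At 5 months it spread more, at 39 ± 2 in trained KI and 39.7 ± 3.21 in naive KI mice. It was 36 ± 3.46 in trained WT and 38.7 ± 3.21 in naive WT mice of that age (SD, n = 3 each).

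Enrichment over input, the fold by which antibody-selected reads exceeded the input background at the summit, was compared over the regions called in every animal. The median over animals was 7.45 for the 36 Wnt pathway regions, which spanned 3.38 to 11.8, and 5.67 for all 12187 regions. Of the 36, 26 exceeded the median of all regions. Ligand regions had a median of 8.1 and all 11 exceeded the median of all regions, 1 of them lying within a Wnt5b intron on the separate gene Fbxl14. The Wnt7b region at 9.11 had its summit outside the annotated gene body and also overlapped AU022754 on the opposite strand. Receptor regions had a median of 7.89 with 10 of 16 above, and cytoplasmic regions a median of 5.11 with 3 of 7 above. The remaining regions were those of Sfrp1, at 9.11, and Lef1, at 8.06. These are descriptions of chosen genes, without a test.

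The most enriched region lay in the coding sequence of Wnt5a, a ligand known for β-catenin-independent signalling, with a median of 11.8 and values between 4.62 and 22.0. It exceeded 97.8% of all regions called in every animal. The 3′ UTR region of Wnt5b followed at 11.5, then Fzd1 at 10.6, Fzd4 at 10.5 and a coding region of Fzd6 at 9.91. Wnt3, a ligand of the β-catenin branch, had 9.74 and Wnt2 9.7. The lowest regions were coding ones of the co-receptor Lrp6, at 3.38 and 3.66, the scaffold Apc, at 3.4, and the receptor Fzd3, at 3.53 and 4.01, followed by the 3′ UTR of Btrc at 4.04. Within 1 gene the regions could differ: Fzd6 had 9.91, 7.55 and 6.93 over its 3 regions, whereas Lrp6 had 4.7, 3.66 and 3.38. β-catenin itself carried a weakly enriched region, with 1.94 to 2.99 in the 23 animals that had it.

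**Figure D2:**
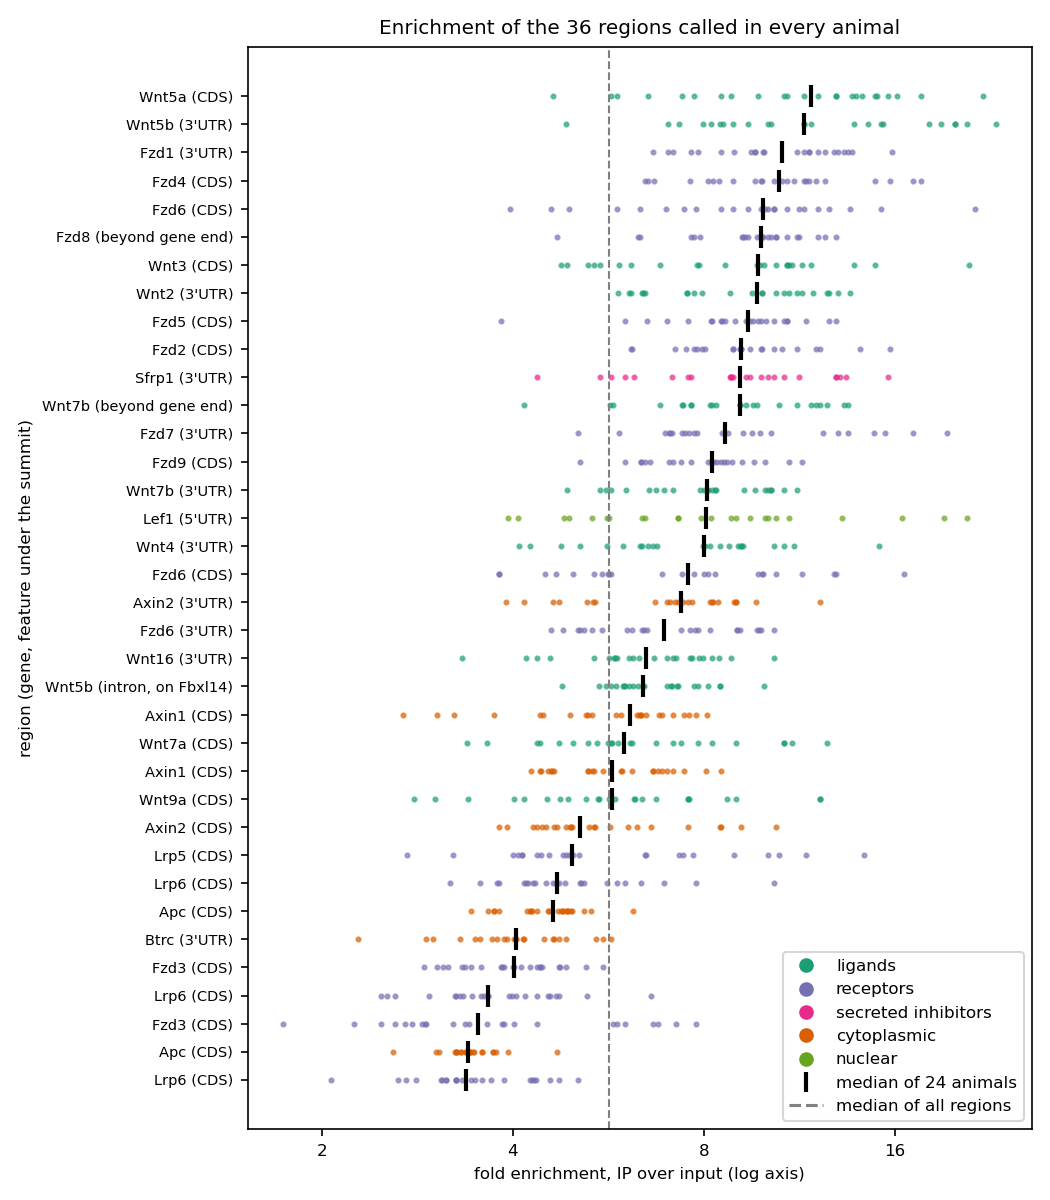
Fold enrichment of IP over input (log axis) at the 36 Wnt pathway regions called in all 24 animals, 1 point per animal, coloured by role, with the median of 24 animals as a black bar. Regions of ligands and most Frizzled receptors lie right of the dashed median of all regions (5.67), and those of Apc, Btrc, Lrp6 and Fzd3 lie left of it.

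Enrichment was compared between genotypes, training and ages with limma over all 12187 regions, with Benjamini-Hochberg adjustment. No Wnt pathway region passed an adjusted p under 0.05 in any of 13 comparisons, and the lowest adjusted p was 0.526. Over all regions, the calls were 0% for KI against WT, 0.00821% for trained against naive and 0% for 8 against 5 months. Within age, training or genotype they were 0% throughout, except 0.0164% for trained against naive KI mice at 8 months. At an unadjusted p under 0.05, 18 Wnt pathway results in 7 regions were found over the 13 comparisons, between 0 and 2 of 36 regions in each. The corresponding shares of all regions were 4.01% for genotype, 3.77% for training and 7.70% for age. For the KI against WT comparisons they were 4.60% in trained and 5.38% in naive mice at 8 months, and 3.62% in trained and 3.58% in naive mice at 5 months. For trained against naive KI mice they were 5.98% at 8 months and 3.32% at 5 months, and for trained against naive WT mice 3.88% and 3.22% at these ages. For the interaction of training with genotype they were 5.54% at 8 months and 3.20% at 5 months. The values below are those of the regions with an unadjusted p under 0.05, and none of them passed the adjustment. Regions chosen by a low p tend to have separated groups. How often groups of 3 animals do not overlap was not counted over all regions, for these or for the later peaks and genes.

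Axin2, a scaffold of the β-catenin destruction complex and itself a target of the pathway, had the lowest unadjusted p. Enrichment of its 3′ UTR region (chr11:108810386-108811359) was 6.7, 5.34 and 4.63 in trained KI mice at 8 months and 9.65, 8.98 and 12.2 in naive KI mice. It was 7.28, 8.91 and 7.06 in trained WT and 3.9, 8.97 and 5.39 in naive WT mice of that age. Trained and naive KI animals did not overlap, whereas WT animals did. The trained less naive difference in KI mice was -0.89 ± 0.27 on the log2 scale (SE, limma, unadjusted p = 0.00273, adjusted p = 0.686). The training by genotype difference was -1.31 ± 0.38 (SE, limma, unadjusted p = 0.00205, adjusted p = 0.688). Naive KI mice had higher values than naive WT mice by 0.80 ± 0.27 (SE, limma, adjusted p = 0.891).

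At 5 months the same Axin2 region had 5.24, 4.16 and 8.26 in trained KI and 6.99, 8.23 and 7.42 in naive KI mice. Trained WT mice had 8.19, 7.66 and 7.21 and naive WT mice 8.42, 7.54 and 4.73. The KI less WT difference in trained mice was -0.60 ± 0.27 (SE, limma, adjusted p = 0.999), and the groups overlapped in 1 KI animal. A coding region of Axin2 (chr11:108784251-108785405) had 10.4, 4.94 and 8.5 in naive KI mice at 8 months, against 4.44, 4.51 and 5.27 in naive WT mice, which overlapped.

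Wnt9a showed its lowest values in naive WT mice at 5 months. Enrichment of its coding region (chr11:59144248-59145718) was 7.54, 4.89 and 6.21 in trained WT mice and 3.02, 2.79 and 3.4 in naive WT mice of that age, with no overlap. The difference was 1.09 ± 0.33 on the log2 scale (SE, limma, unadjusted p = 0.00266, adjusted p = 1). The authors' mean log2 level of recovered reads in the same region ran the other way, with 9.7 in trained WT and 10.22 in naive WT mice. Enrichment in naive KI mice was 4.53, 4.74 and 7.58, also above naive WT mice, by 0.85 ± 0.33 (SE, limma, adjusted p = 0.999). At 8 months the values were 6.22, 12.2 and 8.99 in trained KI and 5.79, 4.02 and 6.73 in trained WT mice, a difference of 0.69 ± 0.33 (SE, limma, adjusted p = 0.998).

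Lrp5, a co-receptor, had higher values in trained mice in 2 settings. Its coding region (chr19:3630084-3630679) had 11.6, 7.42 and 8.92 in trained KI and 6.48, 4 and 4.85 in naive KI mice at 8 months, with no overlap. At 5 months it had 10.1, 4.14 and 10.5 in trained WT and 4.43, 4.56 and 4.37 in naive WT mice, which overlapped. Averaged over genotype and age, trained mice exceeded naive mice by 0.55 ± 0.21 on the log2 scale (SE, limma, unadjusted p = 0.0141, adjusted p = 1).

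Lef1, the DNA-binding partner of β-catenin known for its role in forming the hippocampus, had lower values in older mice. Its 5′ UTR region (chr3:130813159-130814873) lay between 3.93 and 10.4 in the 12 mice at 8 months and between 4.08 and 20.8 in the 12 mice at 5 months, ranges that overlap. The 8 less 5 months difference was -0.64 ± 0.23 (SE, limma, unadjusted p = 0.0108, adjusted p = 0.526). The remaining regions past an unadjusted p of 0.05 were the 3′ UTR regions of Fzd7, with a trained less naive difference of -0.89 ± 0.38 in WT mice at 8 months (SE, limma, adjusted p = 1), and of Fzd6, with a KI less WT difference of 0.64 ± 0.30 in naive mice at 5 months (SE, limma, adjusted p = 0.999).

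**Figure D3:**
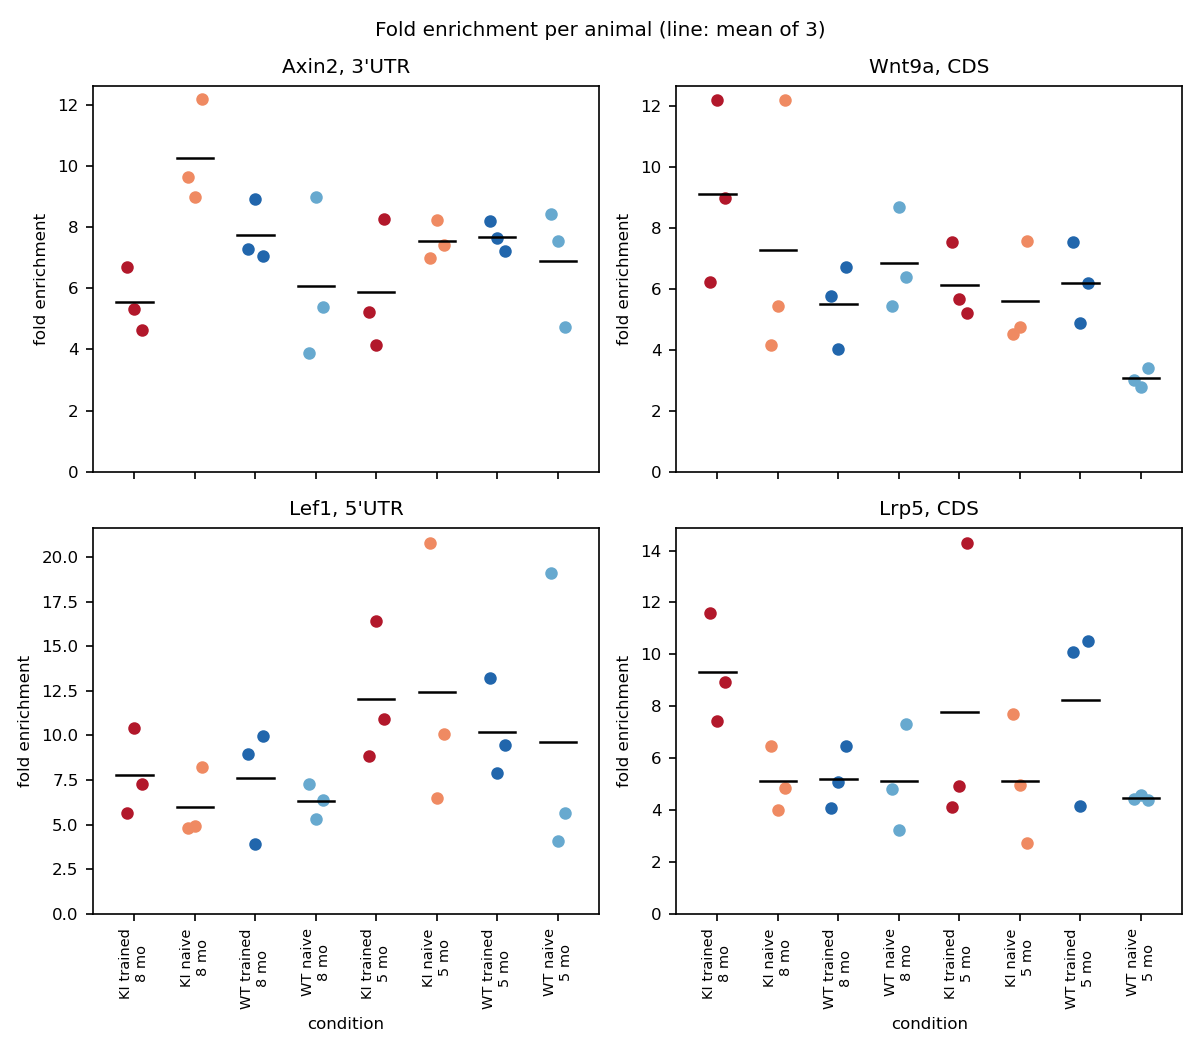
Fold enrichment (linear axis from 0) per animal at regions of Axin2, Wnt9a, Lef1 and Lrp5 in the 8 conditions, with a line at the mean of 3 animals. Naive WT mice at 5 months are lowest for Wnt9a (2.79 to 3.4), and trained KI mice at 8 months are below naive KI mice for Axin2 and above them for Lrp5.

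Whether a region was called at all was compared by Fisher's exact test (two-sided) over 35110 regions called in 3 to 21 animals, 66 of them on Wnt pathway genes. No Wnt pathway region passed after adjustment for genotype, training or age. Over all regions the adjusted calls were 0.00285% for genotype, 0% for training and 0% for age. At an unadjusted p under 0.05 the shares of all regions were 1.79%, 1.44% and 9.80%, and the Wnt pathway counts were 0, 2 and 6 of 66.

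The training results concerned a secreted inhibitor and a scaffold. Sfrp2 was called at its 3′ UTR region (chr3:83576807-83577943) in 3 of 12 trained and 9 of 12 naive mice (exact p = 0.0391, adjusted p = 1). All 6 naive mice at 8 months had it, with enrichments of 4.61, 3.86 and 7.54 in KI and 4.19, 5.39 and 5.49 in WT mice, and 1 trained mouse of that age did, a WT animal at 4.2. The Sfrp2 region also overlapped Gm16790 on the opposite strand. A coding region of Apc was called in 7 of 12 trained and 12 of 12 naive mice (exact p = 0.0373, adjusted p = 1). When equal numbers of best peaks per library were used, the trained less naive difference was -2 animals for Sfrp2 and -1 animal for Apc.

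By age, the 6 of 66 Wnt pathway regions past an unadjusted exact p of 0.05 were near the 9.80% of all regions. They therefore do not set the pathway apart. Among them, coding regions of Axin2, Dvl1, Btrc and Lrp6 were called in more animals at 8 months. Axin2 (chr11:108804736-108805113) was called in 7 of 12 mice at 8 months and 0 of 12 at 5 months (exact p = 0.00458, adjusted p = 0.256). They were all 3 naive KI mice, with 4.76, 3.39 and 4, all 3 naive WT mice, with 2.93, 2.87 and 5.49, and 1 trained WT mouse, with 4.96. A coding region of Dvl1 was called in 8 mice at 8 months and 1 at 5 months (exact p = 0.00942, adjusted p = 0.312), and one of Btrc in 6 at 8 months and 0 at 5 months (exact p = 0.0137, adjusted p = 0.312). An intronic Dvl1 region and an Lrp6 coding region were each called in 5 mice at 8 months and 0 at 5 months (exact p = 0.0373, adjusted p = 0.399). An intronic region of Tcf7l2 ran the other way, with 4 mice at 8 months and 10 at 5 months (exact p = 0.0361, adjusted p = 0.399). The number of peaks per library reached higher values at 8 months, as given above. When equal numbers of best peaks per library were used, the difference for Axin2 was 4 animals, against 7. That difference is not given here for the regions of Dvl1, Btrc, Lrp6 and Tcf7l2.

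The deposited comparison tables list peaks by the authors' own test, at an unadjusted p of at most 0.05, with the authors' mean log2 level of reads in the peak for each group. The differences given here are of those means and carry no test of their own. A level counts recovered reads, so more transcript and more methylation of it cannot be told apart, nor can fewer cells of a type and less RNA per cell. Of the 52 genes, 39 had a listed peak in at least 1 of 10 tables, against 46.7% of all protein-coding genes. They had 218 listed peaks, 102 with a higher and 116 with a lower mean level in KI or trained mice. In 24 the means lay more than 1 apart on the log2 scale, 11 higher (5.05%) and 13 lower (5.96%), over 10 genes, against 4.12% and 4.76% of all listed peaks. Comparisons that share a group of animals are not independent of each other.

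In a single comparison each direction held 0 to 3 of these peaks, and the share exceeded that of all listed peaks in 11 of 20 cases. For KI against WT, the numbers higher and lower by more than 1 were 0 and 2 of 24 Wnt pathway peaks in trained mice at 8 months (2.54% and 5.70% of all listed peaks), 1 and 1 of 28 in naive mice at 8 months (6.74% and 1.75%), 3 and 0 of 28 in trained mice at 5 months (4.65% and 3.04%), and 3 and 0 of 18 in naive mice at 5 months (5.66% and 2.53%). For trained against naive they were 0 and 3 of 27 in KI mice at 8 months (2.35% and 5.32%), 2 and 1 of 13 in WT mice at 8 months (5.83% and 2.96%), 0 and 3 of 17 in KI mice at 5 months (1.97% and 9.90%), and 1 and 1 of 29 in WT mice at 5 months (2.35% and 6.79%). With genotypes combined they were 0 and 1 of 18 at 8 months (3.44% and 3.30%) and 1 and 1 of 16 at 5 months (7.07% and 6.25%). The largest share was 17.6%, lower in trained than in naive KI mice at 5 months.

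The direction of the Wnt pathway peaks followed that of all listed peaks in some comparisons and parted from it in others. For KI against WT, the shares with a higher mean in KI mice were 54.2% of Wnt pathway peaks and 58.5% of all listed peaks in trained and 75% and 63.8% in naive mice at 8 months. At 5 months they were 85.7% and 78.7% in trained and 44.4% and 32.7% in naive mice. For trained against naive mice at 8 months, 25.9% and 45.3% were higher in trained KI mice, 38.5% and 49.6% in trained WT mice, and 33.3% and 47.9% with genotypes combined. At 5 months these shares were 29.4% and 50.4% in KI mice, 13.8% and 15.9% in WT mice, and 56.2% and 51.6% combined. The median difference had the same sign in 9 of 10 tables, the exception being trained against naive KI mice at 5 months, with -0.45 for Wnt pathway peaks and 0.17 for all listed peaks.

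**Figure D4:**
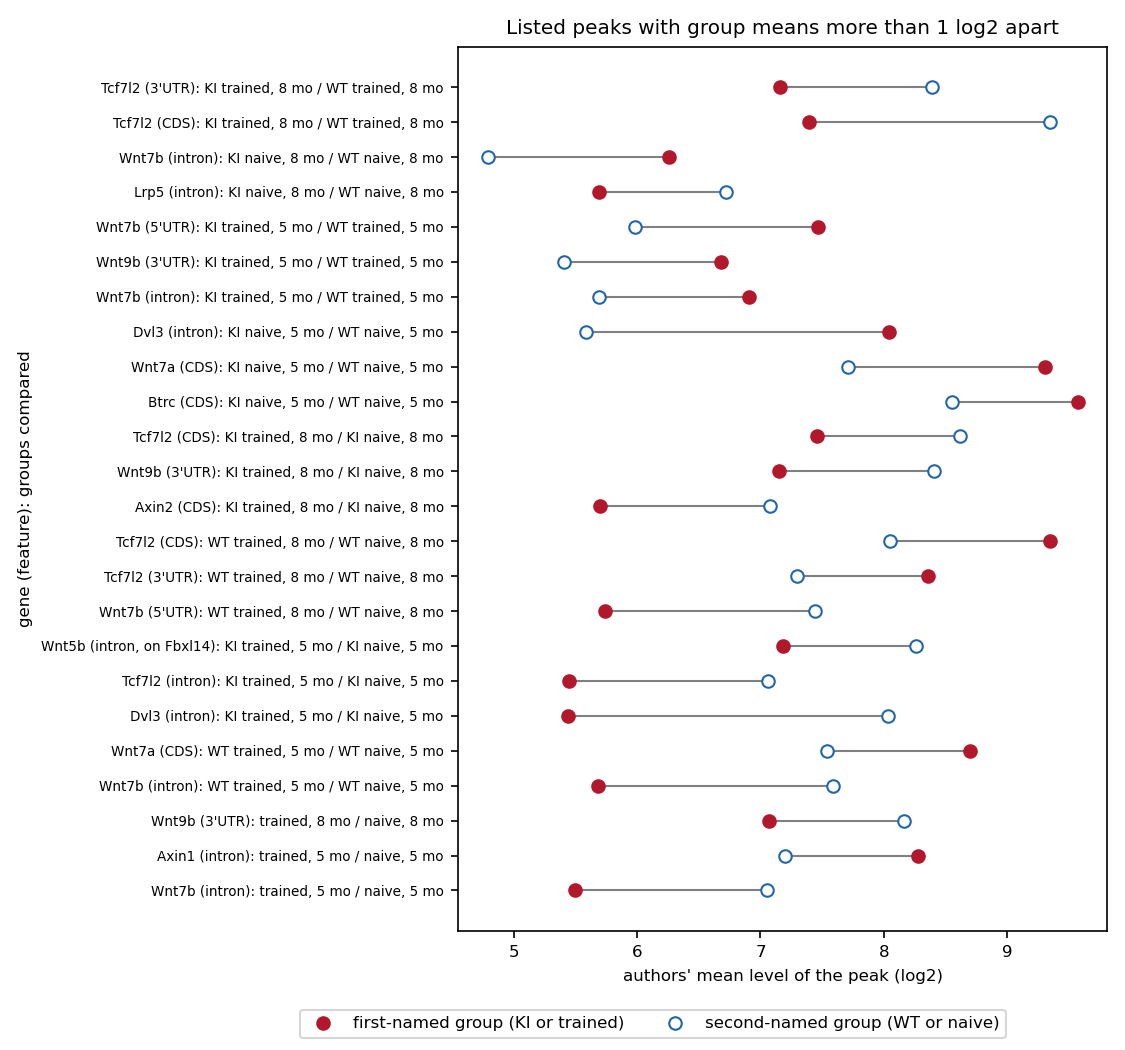
Authors' mean log2 level of the 24 listed Wnt pathway peaks whose group means lay more than 1 apart, with the KI or trained group as a filled point and the WT or naive group as an open point. Dvl3 has the widest gaps, and 6 of the 24 peaks belong to Tcf7l2 and 6 to Wnt7b.

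Among ligands, Wnt7b and Wnt7a, which are expressed in forebrain neurons, and Wnt9b had 11 of the 24 peaks past 1. An intronic Wnt7b peak (chr15:85393888-85394172) had a mean level of 6.26 in naive KI mice at 8 months and 4.79 in naive WT mice. At 5 months the overlapping peak had 6.91 in trained KI and 5.69 in trained WT mice, and 5.68 in trained WT and 7.59 in naive WT mice. It was called in 3 of 3 naive KI and 1 of 3 naive WT mice at 8 months. A 5′ UTR peak of Wnt7b had 7.47 in trained KI and 5.98 in trained WT mice at 5 months, and was called in 3 of 3 trained KI and 0 of 3 trained WT animals. At 8 months it had 5.74 in trained WT and 7.44 in naive WT mice. These peaks thus differed in direction between comparisons.

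A coding peak of Wnt7a (chr6:91344451-91344786) had a mean level of 9.31 in naive KI mice at 5 months, against 7.71 in naive WT mice. Enrichment there was 8.85, 6.37 and 6.69 in the KI animals and 4.02 and 3.14 in the 2 WT animals with a peak. It also had 8.7 in trained WT and 7.54 in naive WT mice of that age, with enrichments of 5, 6.85 and 7.64 in the trained animals. Both differences therefore share the naive WT animals.

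A 3′ UTR peak of Wnt9b (chr11:103591566-103592346) had a lower mean level in trained mice at 8 months, 7.15 in trained KI and 8.41 in naive KI mice. The values were 6.93 in trained WT and 7.88 in naive WT mice. Enrichments were 7.51, 7.92 and 8.15 in trained KI and 8.44, 18.1 and 9.6 in naive KI mice. These groups were apart by a narrow margin, 8.15 against 8.44. Enrichments were 9.42, 6.97 and 6.07 in trained WT and 9.03, 8.06 and 9.72 in naive WT mice, which overlapped. A neighbouring Wnt9b peak had 6.68 in trained KI and 5.41 in trained WT mice at 5 months and was called in 3 of 3 trained KI and 0 of 3 trained WT animals. Wnt2 had 7 listed peaks, 6 of them with a lower mean level and all within 1 on the log2 scale. A listed peak named for Wnt5b with 7.18 in trained KI and 8.26 in naive KI mice at 5 months lay on Fbxl14.

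Among receptors, listed peaks past 1 were confined to Lrp5. The 12 receptors had 66 listed peaks, 35 with a higher and 31 with a lower mean level in KI or trained mice. Peaks of 8 receptors went both ways, among them Fzd6, with 5 higher and 6 lower, and Lrp6, with 7 each, and the 1 peak of Fzd10 was lower. Fzd2, Fzd5 and Fzd9 had 3, 4 and 3 listed peaks, all higher, by 0.16 to 0.53. The 4 peaks of Fzd5 covered the KI against WT comparison in each of the 4 settings of training and age. At 8 months the level was 9.66 in trained KI mice, against 9.38 in trained WT mice, and 9.99 in naive KI mice, against 9.73 in naive WT mice. At 5 months it was 9.86 in trained KI mice, against 9.45 in trained WT mice, and 9.78 in naive KI mice, against 9.25 in naive WT mice. Fzd5 enrichments overlapped between KI and WT mice in each setting. In trained mice at 8 months they were 10.8, 10.8 and 8.23 in KI and 9.85, 8.96 and 9.45 in WT mice. The Fzd5 region called in every animal was not among those past an unadjusted p of 0.05 in limma. Of all listed peaks, 58.5% in trained and 63.8% in naive mice at 8 months had a higher mean in KI mice. At 5 months these shares were 78.7% in trained and 32.7% in naive mice. How many genes were listed on the same side in all 4 settings was not counted, and peaks are listed only by the authors' own test. An intronic Lrp5 peak had 5.69 in naive KI mice at 8 months, against 6.72 in naive WT mice, with 2 of 3 animals called in each group.

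Among transducers, Dvl3, which relays the signal of Frizzled, held the widest gap. An intronic peak (chr16:20522219-20522937) had a mean level of 8.04 in naive KI mice at 5 months, against 5.59 in naive WT mice, a difference of 2.45 on the log2 scale. The overlapping peak had 5.44 in trained KI and 8.03 in naive KI mice of that age, a difference of -2.59. The enrichments were nearer to each other, at 2.84, 2.91 and 3.87 in trained KI, 5.59, 3.13 and 3.04 in naive KI, and 3.61 and 2.01 in the 2 naive WT animals with a peak. The groups overlapped in enrichment.

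The Axin2 coding region described by age was also listed in the trained against naive comparison of KI mice at 8 months, with 5.7 in trained animals, of which 0 of 3 had a peak, and 7.08 in naive animals, of which 3 of 3 had one. A coding peak at the start of Btrc had 9.57 in naive KI mice at 5 months, against 8.55 in naive WT mice, and an intronic Axin1 peak had 8.28 in trained and 7.2 in naive mice at 5 months with genotypes combined. In addition, 8 listed peaks named Btrc lay on the paralogous gene Fbxw11 on chromosome 11 and were not counted as Btrc. Sfrp2 was listed at 5.95 in trained KI and 6.85 in naive KI mice at 8 months.

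Tcf7l2, a β-catenin-binding factor that is strong in the adult thalamus and habenula, was the gene with the most listed peaks, 18 in 8 tables. Its last coding peak (chr19:56005809-56006374) had a mean level of 7.39 in trained KI and 9.35 in trained WT mice at 8 months, a difference of -1.96 on the log2 scale. It had 9.35 in trained WT and 8.05 in naive WT mice, and 7.46 in trained KI and 8.62 in naive KI mice. Enrichments at that region were 4.08, 3.11 and 3.48 in trained KI, 7.75, 5.21 and 5.25 in naive KI, 4.2, 4.31 and 6.41 in trained WT and 3.92, 4.06 and 3.19 in naive WT mice. Trained KI animals lay below naive KI animals without overlap and below trained WT animals by a narrow margin, 4.08 against 4.2. They overlapped naive WT animals. The region was called in 23 animals, so the limma comparison of regions called in every animal did not include it. How often groups of 3 animals separate in this way over all regions was not counted. The 3′ UTR peak had levels of 7.16 in trained KI and 8.39 in trained WT mice, and 8.36 in trained WT and 7.3 in naive WT mice at 8 months. Its enrichments overlapped and did not run in the direction of the WT levels, at 3.78, 5.82 and 6.75 in trained WT and 6.2, 7.59 and 6.27 in naive WT mice. The 2 trained KI animals with a peak had 6.05 and 4.87, within the range of trained WT animals.

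Genes of the thalamus and habenula were listed on the same side as Tcf7l2 in 4 comparisons at 8 months, and on the same, mixed or opposite sides at 5 months. The list was Prkcd, Tnnt1, Ramp3, Slitrk6, Calb2, Shox2, Zic1 and Rgs16, and it was written after the Tcf7l2 values had been seen. For KI against WT among trained mice at 8 months, 4 of the 8 genes had listed peaks, and all 8 peaks had lower mean levels in KI mice, by -2.62 to -0.81. For trained against naive WT mice at 8 months, 2 genes had 4 listed peaks, all higher in trained mice, by 0.9 to 1.52. For trained against naive KI mice, 6 genes had 8 peaks, all lower in trained mice, by -4.75 to -0.49, and for KI against WT among naive mice 2 genes had 3 peaks, all higher in KI mice. With genotypes combined at 8 months, 2 of their peaks were lower in trained mice and Tcf7l2 was not listed. A Zic1 peak (chr9:91259996-91260633) had 9.35 in trained KI and 11.97 in trained WT mice.

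At 5 months a Tcf7l2 peak had 8.01 in naive KI mice, against 7.62 in naive WT mice, whereas all 3 listed peaks of the thalamic and habenular genes were lower in naive KI mice, by -0.84 to -0.43. Another Tcf7l2 peak had 7.53 in trained KI and 8.05 in trained WT mice, whereas 3 of 4 thalamic and habenular peaks were higher in trained KI mice. Between trained and naive KI mice, 3 Tcf7l2 peaks were lower in trained mice, by -1.61, -0.77 and -0.63, and 2 thalamic and habenular peaks had differences of 0.41 and -0.54. Between trained and naive WT mice, 1 peak of Tcf7l2 and 1 of Zic1 were lower in trained mice, by -0.75 and -0.5. The number of these 8 genes with a peak at 5 months was 5 to 7 in trained KI and 6 to 7 in naive KI animals. It was 4 to 5 in trained WT and 5 to 6 in naive WT animals of that age. At 8 months the number was 5 to 7 in trained KI and 6 to 7 in naive KI animals. It was 5 to 7 in trained WT and 5 to 7 in naive WT animals of that age. Calb2 had a peak in none of the animals. Whether tissue carried over from outside the hippocampus contributed to the Tcf7l2 levels was not tested.

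**Figure D5:**
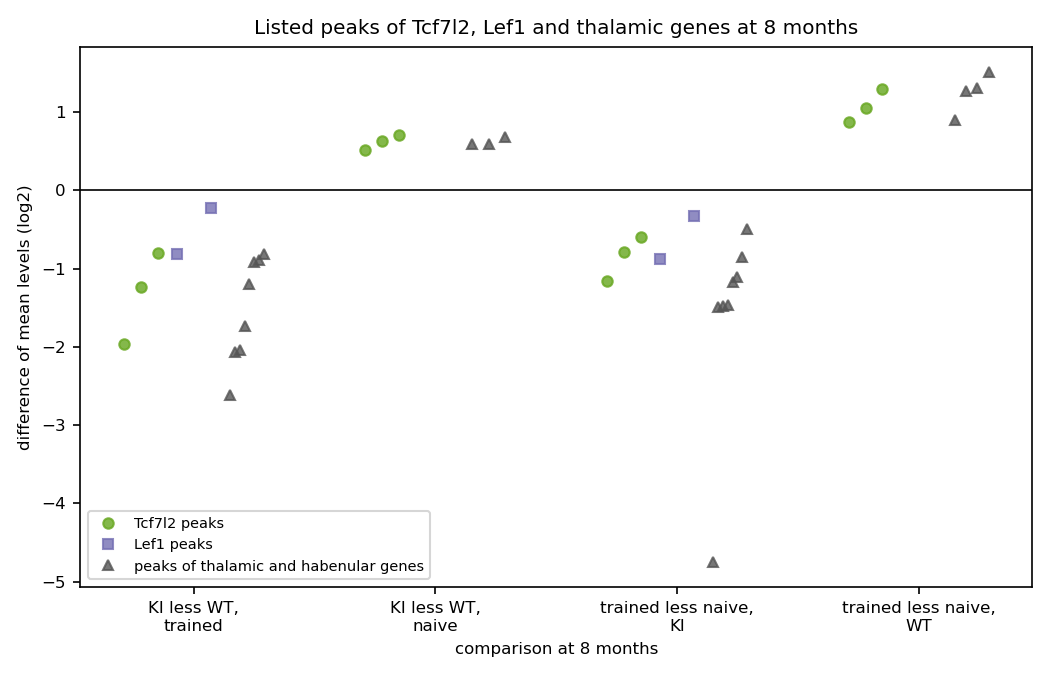
Differences of the authors' mean log2 levels at 8 months for each listed peak of Tcf7l2 (circles), of Lef1 (squares) and of the thalamic and habenular genes (triangles), in 4 comparisons. The Tcf7l2 peaks and the thalamic and habenular peaks lie on the same side of 0 in each comparison.

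Lef1, which is also strong in the thalamus, had listed peaks in the same direction as Tcf7l2 in 2 comparisons at 8 months and in the opposite direction in 2 at 5 months. Its 3′ UTR peak had 6.39 in trained KI and 7.2 in trained WT mice, and 6.44 in trained KI and 7.32 in naive KI mice at 8 months. At 5 months it had 6.39 in naive KI mice, against 6.86 in naive WT mice, and an intronic Lef1 peak had 5.42 in trained KI and 4.72 in trained WT mice. Choroid plexus genes were listed in these tables too. The number with a peak was 3 to 4 of 10 in trained KI and 4 to 7 in trained WT animals at 8 months. Of 10 such genes, 4 had 5 listed peaks with lower levels in KI than in WT mice among trained animals at 8 months, by -3.23 to -0.55, and 4 had 8 peaks with higher levels in KI mice among trained animals at 5 months, by 0.46 to 1.38. For trained against naive mice at 5 months, 7 peaks were lower in trained KI mice and 6 in trained WT mice. For this comparison at 8 months, 3 were lower in trained KI mice, by -0.65 to -0.13. In WT mice of that age 3 were higher in trained mice, by 0.51 to 2.63, whereas the Wnt9b 3′ UTR peak was lower there. With genotypes combined, 3 were higher and 1 lower in trained mice at 8 months. Among naive mice at 8 months 1 was lower in KI mice, by -0.35. The part of choroid plexus RNA in the Wnt7b and Wnt9b levels of these comparisons was not tested.

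Further genes of the pathway were read from a list of kinases, R-spondins, planar polarity proteins, inhibitors and cofactors. Of 75 found in the annotation, 51 (68%) had a peak in all 24 animals and 5 had none, namely Porcn, which acylates Wnt proteins, the secreted proteins Rspo4, Sost and Wif1, and the ligase subunit Skp1a. Of their 464 regions 93 were called in every animal, and 1 of these passed the adjusted test. Chd8, a chromatin remodeller that binds β-catenin, had enrichments at a coding region (chr14:52856448-52857597) of 8.51, 8.86 and 7.94 in trained KI and 2.58, 4.18 and 2.56 in naive KI mice at 8 months. It had 7.46, 7.08 and 4.17 in trained WT and 6.73, 6.55 and 7.39 in naive WT mice. The naive KI animals stood below the trained KI animals without overlap, a difference of 1.48 on the log2 scale (limma, adjusted p = 0.0486), and the call held in 4 of 28 alternative settings. In the tables, 59 of these genes (78.7%) had 440 listed peaks. By more than 1, 15 peaks (3.41%) were higher and 14 (3.18%) lower, against the 4.12% and 4.76% of all listed peaks given above. The widest gap was at a peak on Csnk1d, a casein kinase, with 6.32 in naive KI mice at 8 months, against 0.27 in naive WT mice. All 3 of these KI animals had a peak there, and 0 of 3 WT animals did. A peak on Prickle2, a planar polarity protein, had 5.3 in naive KI mice of that age, against -0.13 in naive WT mice, with a peak in all 3 KI animals and 1 WT animal. Both WT means were very low levels, so the size of these gaps rests on few recovered reads. The next widest gap was at a peak of Daam2, a formin of the planar polarity branch, with 7.4 in trained WT and 4.86 in naive WT mice at 8 months.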

How the data were processed

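MeRIP-seq of 24 hippocampi was read from 1 peak list per animal and 10 comparison tables. The authors trimmed reads with BBDuk, aligned them to mm9 with STAR 2.7.3a, kept unique reads outside repeats and called peaks of each IP against its input with MACS2 2.2.6. The deposited lists give the peak score, the fold enrichment ratio and the −log10 p and q values. The deposited tables give mean log2 levels from DiffBind 2.8.0 for peaks at an unadjusted p of at most 0.05. They also hold the authors' fold changes, p-values and adjusted p-values, which were not used. Each table closes with a line naming 1 pair of groups, so groups were taken from the series description. The study's methods give an approximate coverage for the libraries as a whole, but read numbers per library are not given in the sources used here, so no counting interval is given.

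Peaks overlapping by at least 1 bp were merged into regions, and features are those under a region's summit. The highest enrichment per animal and region, as log2 centred on the animal's median, was fitted with limma 3.58.1 (R 4.3.3) on 8 condition means. Region calls were compared with Fisher's exact test in SciPy 1.17.1. The fits were tested on simulated data. Genes were named where a region was called in all 24 animals, passed an unadjusted p of 0.05 or had table means more than 1 apart. The genes and lists were chosen with earlier results of these data known. Replicate numbers follow deposition order and only name animals.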

Additional observations from a re-analysis of the deposited data

How the results depend on the processing

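Alternatives were the summit in place of any overlap, a stricter q, equal numbers of best peaks, other region borders, quantile normalization, regions called in 20 or more animals, a pseudocount, a filter on low enrichment and leaving out each animal. The 28 genes with a peak in all animals became 27 by summit, 24 at −log10 q of 3 or more and 19 with equal numbers of best peaks, and the 7 with none became 7, 7 and 9. No Wnt pathway region passed the adjusted threshold under any of the 28 alternatives of each limma comparison, where the lowest adjusted p was 0.354, or of the 27 of each Fisher comparison. Over all regions, leaving out 1 animal gave between 0 and 47 calls by age. Of the 24 listed peaks past 1 on the log2 scale, 2 remained past 2, both in Dvl3, and by position in place of symbol the count was 24. For Chd8 the difference ranged from 1.22 to 1.73 and the largest adjusted p was 0.739. No direction reversed in these results. No paired analysis was possible because every library came from a different mouse and the replicate numbers carry no pairing. Depth per library is unknown, so an uncalled peak may reflect few reads, and a result that missed the threshold does not show that values were equal.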
